A study of Mus musculus with 6 samples.

Results

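The 9 genes *Setdb1*, *Trim28*, *Pcgf6*, *E2f6*, *Mga*, *Max*, *L3mbtl2*, *Ehmt1* and *Ehmt2* encode repressors of germline genes and retroelements, and were compared between WT and *Patz1* KO mouse embryonic stem cells (ESCs). They were chosen by name, as H3K9 methylation factors and subunits of the polycomb complex PRC1.6, and all 9 were found among the 23420 gene symbols of the count files. RNA was sequenced from E14 ESCs, a mouse line of male origin grown with LIF, the MEK inhibitor PD0325901 and the GSK3 inhibitor CHIR99021, after removal of ribosomal RNA according to the labels. The labels give the genotypes as wild type and Patz1 -/-, with 3 libraries each. PATZ1 is a zinc finger protein with a BTB domain. The knockout was made with CRISPR/Cas9 in the WT line and several clones were derived in the study, but the clone or clones behind these 3 libraries were not given in the sources used here, so effects of 1 clone and of the genotype cannot be told apart. The libraries are biological replicates in the words of the study, and p-values measure the spread between them.

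In ESCs, genes meant for germ cells and copies of endogenous retroviruses are kept silent by several layers of chromatin. TRIM28 is a scaffold that KRAB zinc finger proteins bring to retroelements, where it recruits SETDB1, the enzyme that trimethylates H3K9. EHMT1 (GLP) and EHMT2 (G9a) act as a heterodimer that places mono- and dimethylation on H3K9. PRC1.6 is a variant polycomb complex that ubiquitinates histone H2A. Its DNA-binding subunits are E2F6, with a DP partner, and the heterodimer of MGA and MAX, which reads the E-box. L3MBTL2 and PCGF6 are further subunits of the complex, and its germline targets are meiotic and germ cell genes.

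The sequences that these DNA-binding subunits read are shown in 5 promoters, for *E2f6*, the member with the smallest p-value, for *Ehmt2*, the single member with both motifs, and for 3 germline genes with both motifs that passed the test in one direction or the other. The sequences are from RefSeq (GRCm38.p6, the same build as mm10), run 5′ to 3′ on the strand of the gene from 250 bases before to 30 bases after its start, and have each E2F site (TCCCGC) and each E-box (CACGTG), searched on both strands, in capitals. The E2F site of *Ehmt2* begins at position 38 after its start, past the printed stretch, so that only its E-boxes are seen.

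*E2f6*, chr12:16810715-16810994, plus strand: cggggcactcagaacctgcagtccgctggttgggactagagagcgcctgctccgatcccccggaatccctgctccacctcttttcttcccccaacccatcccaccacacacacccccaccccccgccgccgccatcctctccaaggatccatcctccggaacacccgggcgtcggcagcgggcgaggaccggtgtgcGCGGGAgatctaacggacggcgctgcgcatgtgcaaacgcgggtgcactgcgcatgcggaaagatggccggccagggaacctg
*Ehmt2*, chr17:34898224-34898503, plus strand: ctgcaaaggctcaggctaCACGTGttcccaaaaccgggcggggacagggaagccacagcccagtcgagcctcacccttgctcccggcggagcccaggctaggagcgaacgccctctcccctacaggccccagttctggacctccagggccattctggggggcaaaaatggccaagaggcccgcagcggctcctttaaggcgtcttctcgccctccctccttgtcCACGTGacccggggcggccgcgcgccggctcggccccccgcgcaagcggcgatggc
*Mael*, chr1:166238715-166238994, minus strand: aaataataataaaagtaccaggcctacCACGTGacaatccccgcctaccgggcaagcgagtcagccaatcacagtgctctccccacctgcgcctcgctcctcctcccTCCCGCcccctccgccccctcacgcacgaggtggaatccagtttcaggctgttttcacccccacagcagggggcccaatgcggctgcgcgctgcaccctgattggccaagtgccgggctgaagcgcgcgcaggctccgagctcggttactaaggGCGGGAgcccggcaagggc
*Stag3*, chr5:138280259-138280538, plus strand: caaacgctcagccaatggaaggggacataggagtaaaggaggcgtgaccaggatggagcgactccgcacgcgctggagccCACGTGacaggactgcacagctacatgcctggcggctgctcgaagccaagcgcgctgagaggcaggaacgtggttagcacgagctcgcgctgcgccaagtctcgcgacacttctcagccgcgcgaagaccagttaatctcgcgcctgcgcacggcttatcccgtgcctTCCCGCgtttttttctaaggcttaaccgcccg
*Hormad1*, chr3:95559427-95559706, plus strand: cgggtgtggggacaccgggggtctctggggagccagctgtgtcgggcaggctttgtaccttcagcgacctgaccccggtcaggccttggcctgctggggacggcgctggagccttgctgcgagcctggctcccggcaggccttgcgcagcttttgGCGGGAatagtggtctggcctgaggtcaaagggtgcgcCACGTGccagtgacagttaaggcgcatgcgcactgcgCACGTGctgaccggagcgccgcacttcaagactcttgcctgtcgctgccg

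In windows of 250 bases before to 50 after the start, TCCCGC was found in 20% of 32851 promoters of all genes and CACGTG in 7.15%. All 9 members had a promoter entry. *Trim28*, *E2f6*, *Ehmt1* and *Ehmt2* held TCCCGC, so 4 of the 9 genes did. *Max* and *Ehmt2* held CACGTG. Of 24 germline target genes, 23 had an entry, 11 with TCCCGC, 13 with CACGTG (56.5%) and 7 with both, which 1.99% of all promoters hold. Among the 14253 promoters of at least 55% GC the shares were 39.2% and 10.2%. The letters GGGAGGG, a motif of the related factor MAZ, were in 4 of the 9 members, in 22% of all promoters and in 34.3% of those of at least 55% GC. All 9 members have promoters of at least 55% GC. Where a gene had several entries, it was counted when any of them held the letters. A match of letters is no evidence of binding.

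Library depth was between 37573923 and 47721070 counts in replicates 1 and 2, and 11040756 (WT) and 11420268 (KO) in replicate 3. The ribosomal precursor *Rn45s* took 12.5% to 14.4% of counts in replicate 3 and at most 3.03% elsewhere. *Patz1* itself fell to 45.5% of the WT mean, with 1838, 1983 and 1843 normalized counts (raw counts over the size factor of their library) in the WT libraries, in the order of replicates 1 to 3 used throughout, and 853, 862 and 862 in the KO libraries. The log2 fold change of KO over WT was -1.14 (SE 0.10, adjusted p 1.58e-26, DESeq2). These are values of RNA, and by western blot the study found PATZ1 protein lost in its KO lines. The pluripotency factor *Pou5f1* stood at 32176 ± 1842 in WT against 35441 ± 885 in KO (normalized counts, SD, n = 3 each, adjusted p 0.454). With the replicate number as a block it was under the threshold (adjusted p 0.0405).

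Calls among marker genes stand beside those of all genes tested, of which 7.49% had an adjusted p under 0.05 (DESeq2). An unadjusted p under 0.05 was found for 17.2%. The 8 ESC marker genes summed to 150024 to 158509 normalized counts in WT and 170103 to 176061 in KO. *Dppa5a* was the 1 that passed, by 0.38 on the log2 scale (adjusted p 0.00223; 0.0543 when WT replicate 2 was left out and 0.0575 when KO replicate 2 was), and with the block, which called 14.6% of all genes tested, 3 did, all higher (*Pou5f1*, *Dppa5a* and *Zfp42*, 0.0298). Sums over markers of other cell types were smaller than this in every library. The 7 primitive endoderm genes summed to 133 to 189 in WT and 172 to 219 in KO. Over the 6 tested, the median was -0.15 on the log2 scale. *Dab2* rose (1.33, adjusted p 0.00191; 0.077 without WT replicate 1 and 0.0531 without WT replicate 2), *Sox17* and *Pdgfra* stood at -0.83 and -0.51 without passing, and *Foxa2*, at 0 in WT and 12.4, 4.15 and 5.29 in KO, had no adjusted p but passed with either of the other settings of independent filtering (0.0169 and 0.0204). The 7 trophoblast genes summed to 1582 to 1821 and 1302 to 1437, with a median of -0.02 over the 6 tested. *Krt8* and *Cdx2* fell by log2 fold changes of -0.66 (adjusted p 2.77e-05) and -0.72 (0.035, and 0.0593 to 0.291 without each library in turn). *Gata3* had the opposite sign, with 13.2, 24 and 46.5 in WT and 51.4, 39.1 and 55.5 in KO (0.94, adjusted p 0.209, and 0.0195 without WT replicate 3). The 6 neural genes summed to 4550 to 5405 and 4444 to 5615, mostly *Tubb3* (3650 to 4557 and 3834 to 4939) and *Nes*, and 0 passed, with 1 at an unadjusted p under 0.05. That gene, *Nes*, had 669, 704 and 778 in WT and 334, 536 and 618 in KO (-0.54, adjusted p 0.0509). It was under the threshold with the block (0.000235), the count filter (0.0469), size factors without chromosomes 11, X and Y (0.0408), without KO replicate 3 (0.00521) and without both replicate 3 libraries (0.00648). The 6 fibroblast genes summed to 16.4 to 30.4 and 13.2 to 19.2, 3 of the 6 having at most 3 counts in every library, with 0 under the threshold and 0 at an unadjusted p under 0.05. Of these markers, *Sox17*, *Pdgfra*, *Foxa2*, *Gata3* and *Zfp42* were named after their values were seen. The part of such cells in the results was not tested.

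Of the 9 members, 0 passed the threshold, an adjusted p of 0.05 in the Wald test of DESeq2, where 7.49% of the 15309 genes tested did, 2.70% higher and 4.78% lower in KO. At an unadjusted p under 0.05 there was 1 member, *E2f6*, against 17.2% of all genes tested. edgeR and limma-voom, also with genotype alone, gave 0 members under the threshold, and 1 at an unadjusted p under 0.05 each. With the replicate number as a block in DESeq2, 1 member was under the threshold, *E2f6*, against 14.6% of the genes then tested. The median log2 fold change was -0.02 over the members, with 3 positive and 6 negative values, none of them called and that of *Ehmt1* at -8.54e-05, and 0.0087 over all genes tested. These are abundant transcripts. The lowest count of any member in any library was 189, and SEs of the log2 fold change were 0.09 to 0.12. Genes of similar abundance did pass, 515 of the 6783 with a mean of at least 500 normalized counts (7.59%). The genotypes did not overlap in 2 of the 9 members, *E2f6* and *Ehmt2*, against 25.6% of all genes tested. The 95% intervals of the 9 members lay between 78.8% and 144% of the WT level, so that changes beyond these bounds are outside every interval while smaller ones are not.

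**Figure D1:**
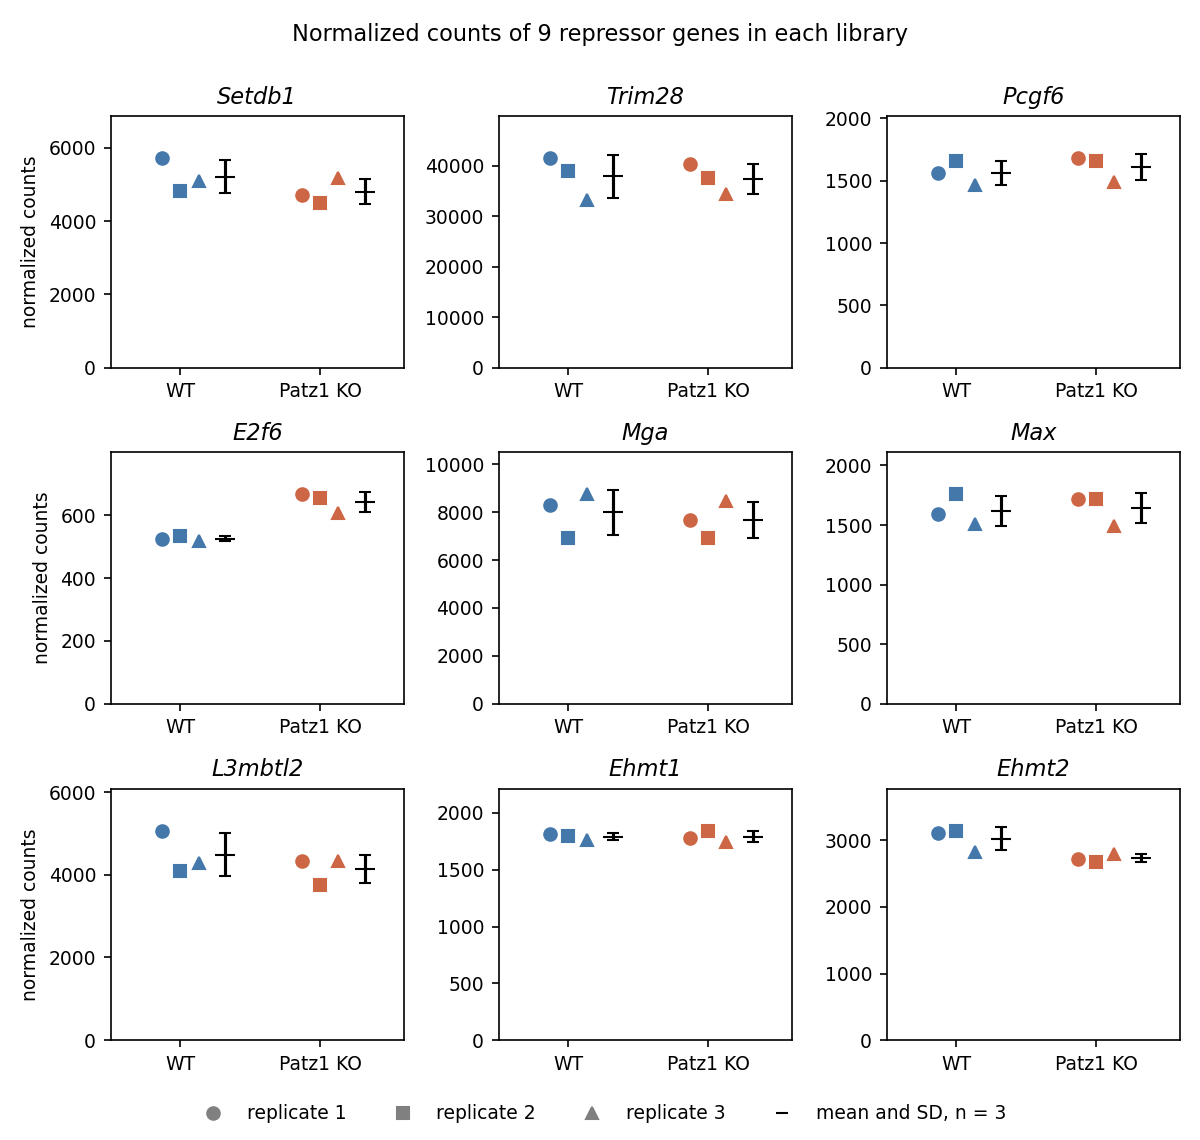
Normalized counts (linear axes from 0) of each of the 9 genes in the 3 WT and 3 *Patz1* KO libraries, with the replicate number as marker shape and mean and SD beside the points. *E2f6* and *Ehmt2* are the 2 genes whose genotypes do not overlap, as in 25.6% of all genes tested. *E2f6* lies at 518 to 535 in WT and 608 to 666 in KO.

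*E2f6* (chromosome 12, 16810963 to 16839742, plus strand, GENCODE M21 on GRCm38), the subunit of PRC1.6 that reads the E2F site, gave 523, 535 and 518 normalized counts in WT, against 666, 653 and 608 in KO. Every KO library lay above every WT library, and the gap was wider than the spread within either genotype. The KO mean was 122% of WT, a log2 fold change of 0.30 (SE 0.12, 95% interval 0.06 to 0.53). With an unadjusted p of 0.0132, the adjusted p was 0.121 with DESeq2, 0.0647 with edgeR and 0.0511 with limma-voom. *E2f6* thus missed the threshold with each tool when genotype alone was in the model. With the replicate number as a block *E2f6* was under the threshold (adjusted p 0.0487), as were 14.6% of the 14567 genes then tested, 6.68% higher and 7.95% lower. Within pairs of equal replicate number the log2 difference was 0.35, 0.29 and 0.23. The E2F site in the promoter of *E2f6*, shown above, lies at position -53 relative to the gene start.

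The other DNA-binding subunits did not pass. *Mga* (chromosome 2, 119897228 to 119969581), a large protein with a T-box and a bHLH domain, gave 8304, 6927 and 8737 normalized counts in WT, against 7660, 6918 and 8443 in KO. The genotypes overlapped over most of their range, with a log2 fold change of -0.06 (95% interval -0.29 to 0.17, adjusted p 0.896, DESeq2). *Max* (chromosome 12, 76937269 to 76962201), the bHLH partner of MGA and of the MYC proteins, had 1594, 1757 and 1506 in WT and 1717, 1716 and 1493 in KO. Its log2 fold change was 0.02 (95% interval -0.20 to 0.24, adjusted p 0.96). In both genotypes replicate 3 was the highest library for *Mga* and the lowest for *Max*.

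The remaining PRC1.6 subunits of the set did not pass either. *Pcgf6* (chromosome 19, 47033617 to 47050906), the PCGF subunit that defines the complex, gave 1564, 1658 and 1468 normalized counts in WT, against 1681, 1658 and 1490 in KO. Its log2 fold change was 0.04 (95% interval -0.16 to 0.25, adjusted p 0.917, DESeq2). *L3mbtl2* (chromosome 15, 81663889 to 81688315), an MBT domain protein, had 5069, 4094 and 4288 in WT and 4335, 3746 and 4323 in KO. WT replicate 1 was the highest library and the other 5 overlapped. The log2 fold change was -0.12 (95% interval -0.34 to 0.10, adjusted p 0.715), and within pairs it was -0.23, -0.13 and 0.01. Of its exon bases, 17.2% are also exon of *Chadl* on the opposite strand, and the strand setting of the counting was not given. *Chadl* had at most 24.6 normalized counts in a library, against at least 3746 of *L3mbtl2*.

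Among the H3K9 methyltransferases, *Ehmt2* (chromosome 17, 34898469 to 34914052) gave 3113, 3147 and 2826 normalized counts in WT, against 2721, 2677 and 2801 in KO. The genotypes did not overlap, but WT replicate 3 and KO replicate 3 were nearly equal. The KO mean was 90.2% of WT, a log2 fold change of -0.15 (SE 0.09, 95% interval -0.34 to 0.03, adjusted p 0.443, DESeq2), and the pairs differed by -0.19, -0.23 and -0.01. Its partner *Ehmt1* (chromosome 2, 24789928 to 24919614) varied little, with 1814, 1801 and 1761 in WT and 1784, 1845 and 1744 in KO. The KO mean was 99.9% of WT, with an interval of 88% to 114%. No 50-base stretch of the longest transcript of either gene occurs in a transcript of another gene, so the related sequences of *Ehmt1* and *Ehmt2* do not share reads of that length.

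*Setdb1* (chromosome 3, 95323525 to 95357202) gave 5720, 4830 and 5109 normalized counts in WT, against 4718, 4509 and 5182 in KO. Only WT replicate 1 lay above all KO libraries. The log2 fold change was -0.12 (95% interval -0.33 to 0.08, adjusted p 0.661, DESeq2), and within pairs it was -0.28, -0.10 and 0.02. Of the 50-base stretches of its longest transcript, 6.66% also occur in transcripts of 3 other genes (*Gm4349*, *Gm37500* and *Cers2*), the highest share of the 9 genes after the 7.11% of *L3mbtl2*. *Trim28* (chromosome 7, 12999114 to 13031035) had 41463, 39018 and 33194 in WT and 40301, 37557 and 34370 in KO. Its log2 fold change was -0.02 (95% interval -0.23 to 0.20, adjusted p 0.967), and no 50-base stretch of it was shared.

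**Figure D2:**
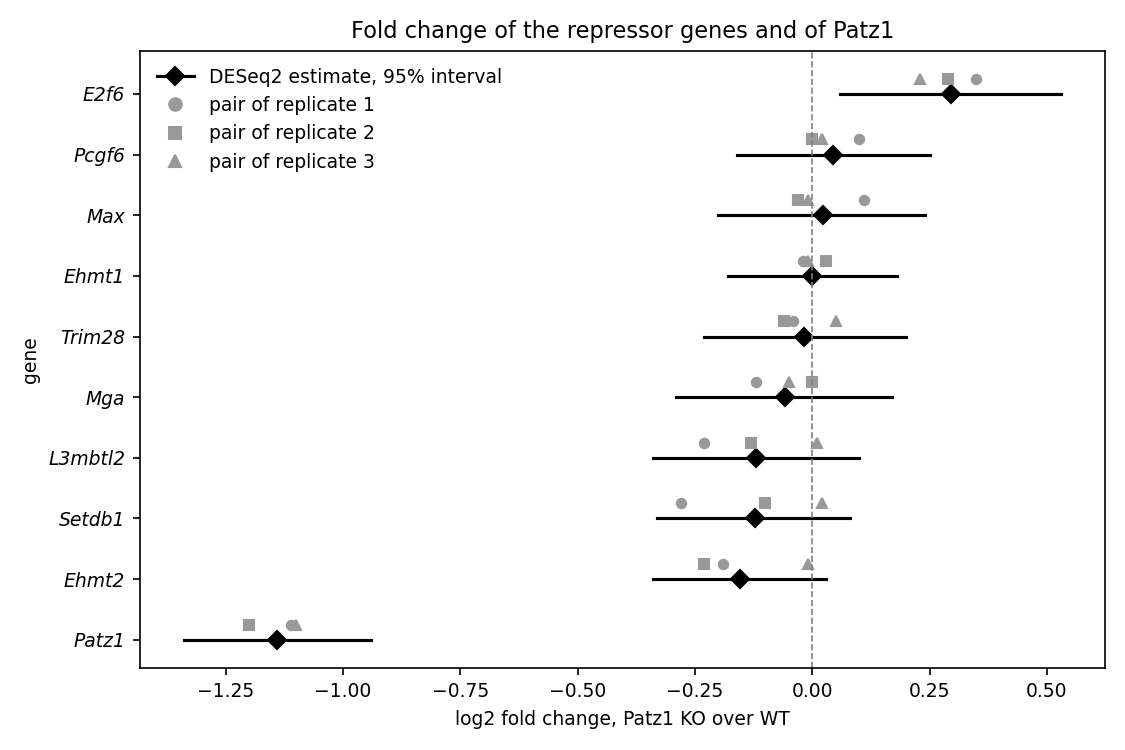
Log2 fold change of KO over WT for the 9 genes and *Patz1*, with the DESeq2 estimate and 95% interval in black and the difference within each pair of equal replicate number in grey. The interval of *E2f6* runs from 0.06 to 0.53, those of the other 8 genes include 0, and that of *Patz1* lies at -1.34 to -0.94.

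Replicate 3 differed from the mean of replicates 1 and 2 with the same sign in WT and KO for 6 of the 9 genes (log2 of normalized count + 1). For *Trim28* the shift was -0.28 in WT and -0.18 in KO, for *Max* -0.15 and -0.20, for *Pcgf6* -0.13 and -0.16, and for *Mga* 0.20 and 0.21. In 5 genes, these 4 and *Ehmt1*, the shift was larger than the genotype difference in both genotypes. Replicate 3 is also the shallow pair with more ribosomal RNA, and the part of either in these shifts was not tested. Without both replicate 3 libraries, 0 of the 9 genes passed, and the log2 fold changes ranged from -0.21 (*Ehmt2*) to 0.32 (*E2f6*).

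Per length of exon, the members spanned a wide range. In normalized counts per kb of exon, *Trim28* was highest at 9113 ± 1022 in WT, against 8997 ± 714 for KO (SD, n = 3 each), 12 times the next gene in WT. *Setdb1* (762 ± 66.4 in WT, 701 ± 50.3 in KO) and *L3mbtl2* (754 ± 86.9 and 695 ± 56.6) followed and did not differ beyond their spread. *Ehmt2* (552 ± 32.1 and 498 ± 11.5), *Mga* (521 ± 61.6 and 500 ± 49.7) and *Max* (450 ± 35.4 and 456 ± 35.9) came next. In WT each of these overlapped the next, and in KO *Ehmt2* (488 to 510) overlapped *Mga* but not *Max* (415 to 477). *Pcgf6* (311 ± 18.9 and 320 ± 20.7), *Ehmt1* (221 ± 3.43 and 221 ± 6.23) and *E2f6* (92.7 ± 1.53 and 113 ± 5.43) were lower, with no overlap between neighbours. The order was the same in KO except that *Ehmt2* and *Mga* changed places, within their spread. With the longest transcript as length, WT levels were 174 for *E2f6*, 834 for *Max* and 552 for *Pcgf6*, each over 1.5 times the value per kb of all exons. *Max* then took place 4 in place of 6, while *Trim28* remained first and *E2f6* last.

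**Figure D3:**
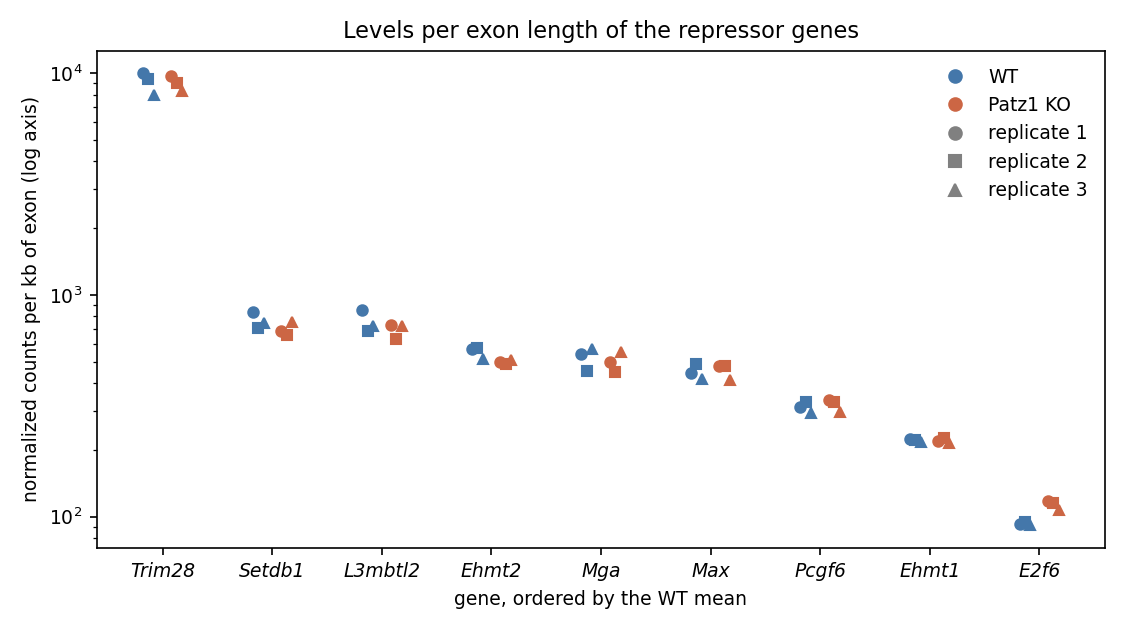
Normalized counts per kb of exon (log axis) of the 9 genes in each library, ordered by the WT mean, with genotype as colour and replicate as marker. *Trim28* stands at 7983 to 9972 and *E2f6* at 91.4 to 118. *E2f6* and *Ehmt2* are the genes whose WT and KO points do not overlap, as in 25.6% of all genes tested.

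Ratios between partners, taken within a library so that the size factor cancels, were compared for 6 pairs. *Ehmt1* per kb was 0.401 ± 0.0181 of *Ehmt2* in WT against 0.444 ± 0.0225 in KO. With SDs over n = 3 each, the log2 difference was 0.15 (exact two-sided permutation p 0.2, adjusted 0.6 over the 6 ratios). *E2f6* was 0.18 ± 0.0256 of *Mga* in WT and 0.229 ± 0.0309 in KO, a log2 difference of 0.35 (exact p 0.2, adjusted 0.6). *Mga* over *Max* was 1.17 ± 0.223 and 1.11 ± 0.197 (exact p 0.8). The ratios *L3mbtl2* over *Mga*, *Pcgf6* over *Mga* and *Setdb1* over *Trim28* had log2 differences of -0.06, 0.10 and -0.10, with exact p-values of 0.6, 0.7 and 0.5. Within pairs of equal replicate number, *E2f6* over *Mga* was higher in KO each time (0.171 and 0.236, 0.209 and 0.256, 0.16 and 0.195), as was *Pcgf6* over *Mga* (0.575 and 0.67, 0.73 and 0.731, 0.513 and 0.539), while *Setdb1* over *Trim28* was lower each time (0.0837 and 0.071, 0.0751 and 0.0728, 0.0934 and 0.0915). The unpaired test does not use this. The genotypes overlapped in all 6 ratios, and 3 against 3 libraries cannot give a p below 0.1.

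The genes most like *E2f6* across the 6 libraries, among 11523 with a mean of at least 50 normalized counts, were *Morf4l2* (Pearson r 0.994, X), *Maged2* (0.994, X) and *3110001D03Rik* (0.993, chromosome 4). In all, 155 genes reached at least 0.95 over these few libraries. *Morf4l2* and *Maged2* lie on distal X beyond *Pin4*, where the median log2 fold change over 178 genes was 0.43.

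Other genes of these pathways were read from lists chosen by known role. Of 10 further PRC1.6 subunits, 0 passed (DESeq2), against 7.49% of all genes tested. At an unadjusted p under 0.05 there were 2, against 17.2% of all genes tested, and the median log2 fold change was 0.06. *Cbx3*, an HP1 protein found in the complex, gave 15749, 17032 and 18909 normalized counts in WT, against 19632, 20961 and 22103 in KO. The genotypes did not overlap, with a log2 fold change of 0.28 (adjusted p 0.068). *Cbx3* was under the threshold with the replicate block (adjusted p 1.28e-06), and it was the 1 gene of the list that passed without WT replicate 3 (0.0053). *Wdr5* had a log2 fold change of 0.13 (adjusted p 0.585). Of 16 E2F family genes and MAX partners, 0 passed (7.49% of all genes did) and 4 had an unadjusted p under 0.05 (17.2% of all genes did), with a median of -0.02. *E2f4* and *Mlx*, the highest of the list per kb, had log2 fold changes of 0.22 (adjusted p 0.192) and -0.34 (0.156), and both were under the threshold with the block (0.0188 and 0.00244), as was *E2f7* (0.0377), so that the block called 3 of the 16 where it called 14.6% of all genes. *Mlx* lies on chromosome 11, where the median log2 fold change over 960 genes was -0.26. Without WT replicate 3, 2 genes of this list passed, *Mlx* (0.00384) and *E2f7* (0.0202), which was named after its values were seen. In that fit 1341 of all genes passed, against 1146 with all libraries.

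Of 19 partners and readers of H3K9 methylation, 2 passed (10.5%, against 7.49% of all genes tested), 1 in each direction, with a median log2 fold change of 0.03. With the replicate block, which called 14.6% of all genes, 4 passed, then also *Cbx5* (0.00402) and *Morc2a* (0.0161), named after their values were seen. *Morc2a*, with a log2 fold change of -0.20, lies on chromosome 11, where the median over 960 genes was -0.26. *Atf7ip*, the cofactor that stabilises SETDB1 in the nucleus, fell from 1516, 1352 and 1676 normalized counts in WT to 1054, 982 and 1144 in KO. Every KO library was below every WT library, at 70% of the WT mean (log2 fold change -0.51, SE 0.12, adjusted p 0.00065, DESeq2). The pairs differed by -0.52, -0.46 and -0.55, and *Atf7ip* passed under all 15 alternatives, with adjusted p-values up to 0.0371. *Atrx*, a chromatin remodeller that works with DAXX, rose from 10419, 9231 and 12390 to 14793, 12130 and 15399, by 0.40 on the log2 scale (SE 0.13, adjusted p 0.0295). *Atrx* lies on distal X, where the median over 178 genes from *Pin4* on was 0.43. *Atrx* missed the threshold with edgeR (0.112), limma-voom (0.0815), and without KO replicate 1 (0.259), KO replicate 3 (0.151), WT replicate 1 (0.205) or WT replicate 2 (0.286), so that these 4 fits and both tools left 1 gene of the list.

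Among 8 KRAB zinc finger proteins that recruit TRIM28, 1 passed (12.5%, against 7.49% of all genes tested), and with the replicate block, against 14.6% of all genes, 2 did, then also *Zfp568* (0.0415), named after its values were seen. *Zfp809*, which silences murine leukemia virus and related proviruses, fell from 1178, 1036 and 961 normalized counts in WT to 845, 696 and 801 in KO. The genotypes did not overlap, and the KO mean was 73.8% of WT (log2 fold change -0.45, SE 0.13, adjusted p 0.0104, DESeq2). *Zfp809* missed the threshold without KO replicate 2 (0.191), WT replicate 1 (0.197) or WT replicate 2 (0.072), which left 0 genes of the list. The median of the 8 genes was 0.04. Of 10 H3K9 demethylases 1 passed (10%), *Phf8* on distal X, where 53.9% of genes did, with 931, 1002 and 1235 in WT and 1367, 1260 and 1633 in KO (log2 fold change 0.43, SE 0.14, adjusted p 0.0298). It missed the threshold with edgeR (0.089), limma-voom (0.0592), and without KO replicate 1 (0.15), KO replicate 3 (0.164), WT replicate 1 (0.319) or WT replicate 2 (0.222).

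**Figure D4:**
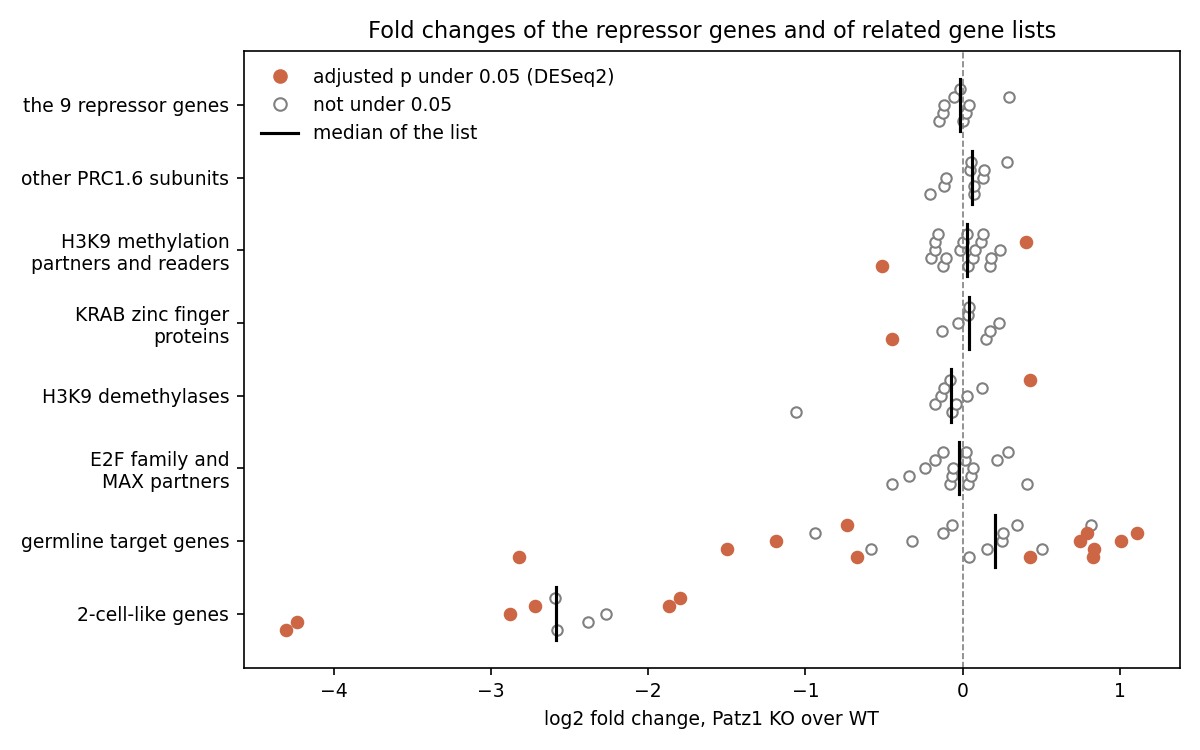
Log2 fold change of KO over WT of every tested gene in the 9-gene set and in 7 related lists, with genes under an adjusted p of 0.05 filled and the median of each list as a bar. The repressor genes lie between -0.15 and 0.30, while the germline target genes reach from -2.82 to 1.11 and the 2-cell-like genes from -4.30 to -1.80.

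Genes that these repressors are known to repress were read in the same fit. In WT the mean normalized counts of the germline list ran from 29 to 903, so none of them was at 0. Of 24 germline target genes, all tested, 12 passed (50%, against 7.49% of all genes), 7 higher and 5 lower in KO. With the replicate block 13 passed (14.6% of all genes did), then also *Tuba3a*, named after its values were seen (-0.32, adjusted p 0.0329, and 0.0172 without WT replicate 3). The median over the list was 0.20 on the log2 scale. Calls among related germline genes were known when the list was set, so the count is a description. *Zcwpw1*, a histone reader in meiotic recombination, rose from 259, 239 and 279 normalized counts to 610, 462 and 600 (log2 fold change 1.11, SE 0.16, adjusted p 4.92e-10, DESeq2). *Stag3*, the meiotic cohesin subunit whose promoter is shown above, rose from 993, 830 and 884 to 1681, 1323 and 1541 (0.74, adjusted p 7.14e-07). *Tex11*, an X-linked meiotic gene, rose from 302, 257 and 246 to 527, 467 and 444 (0.83, adjusted p 3.19e-06). It ends at 101059667 on X, short of *Pin4* (from 102119447), where the stretch called distal X was set to begin. The median over the 178 genes of that stretch was 0.43, and whether *Tex11* shares this shift was not tested. These 3 genes stood higher in every KO library.

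Other germline genes fell. *Fkbp6*, of the piRNA pathway, went from 756, 600 and 619 to 95.9, 96.1 and 84.6 normalized counts (log2 fold change -2.82, SE 0.17, adjusted p 5.94e-60, DESeq2). *Dazl*, an RNA-binding protein of germ cells, went from 661, 715 and 794 to 434, 458 and 460 (-0.67, adjusted p 8.86e-06). The other 7 genes that passed were named after their values were seen. *Mael*, *Taf7l*, *Meioc* and *Stk31* rose by log2 fold changes of 0.79, 1.01, 0.83 and 0.43, and *Hormad1*, *Tuba3b* and *Asz1* fell by -0.74, -1.19 and -1.50. *Taf7l* lies on distal X and *Meioc* (listed as *Gm1564* in the files) on chromosome 11. *Tuba3b* has a close paralog, *Tuba3a*, so its counts are uncertain. *Fkbp6*, *Zcwpw1*, *Stag3*, *Tex11*, *Dazl*, *Mael*, *Taf7l* and *Hormad1* passed under all alternatives. *Stk31* missed the threshold without KO replicate 1 (0.117) or WT replicate 2 (0.142), *Meioc* without KO replicate 2 (0.056) or WT replicate 1 (0.0716), and *Tuba3b* without replicate 1 of KO (0.154) or WT (0.375) or replicate 2 of KO (0.115) or WT (0.103). *Asz1* missed it without any 1 library (0.0661 to 0.218), without both replicate 3 libraries (0.15) and with edgeR (0.0537). It had 16.4, 14.8 and 2.64 normalized counts in KO, the last below the floor of 3 counts, which is 7.93 in that library. Letters of the E-box were in the promoters of 4 of the 6 genes with an entry that rose, 2 of the 5 that fell and 7 of the 12 that did not pass.

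The 12 genes of the 2-cell-like state, many of them driven by retroviral promoters, were read last. Of these, 11 were in the files and 10 had an adjusted p. All 10 had a lower mean in KO, and 6 passed, each in the lower direction (4.78% of all genes were called lower). The median over the 10 was -2.58 on the log2 scale. *Tdpoz3* gave 8.58, 32.5 and 19.2 normalized counts in WT, against 0, 2.37 and 0 in KO (adjusted p 0.00121, DESeq2), and *Tdpoz4* had 8.01, 36.7 and 11 in WT and 0, 2.37 and 0 in KO (0.00297). These KO values are at or near the floor of 3 counts, which corresponds to 1.69 to 7.93 normalized counts in the KO libraries. *Tcstv3* had 49.8, 299 and 271 in WT and 10.7, 37.4 and 37 in KO (adjusted p 0.019), *Tcstv1* 20.6, 70.6 and 41.1 against 6.77, 12.5 and 21.1 (0.0127), and *Zfp352* 22.9, 62.8 and 27.4 against 10.7, 8.9 and 15.9 (0.0135). WT replicate 1 was the lowest WT library for each of the 5 genes. With WT replicate 1, 2 or 3 left out, 10, 1 or 4 passed, and with KO replicate 1, 2 or 3 left out, 0, 2 or 4 did. In the same fits 605, 664 or 1341 and 583, 590 or 1016 of all genes passed, against 1146 with all libraries. Of the list, 3 passed with edgeR (961 of all genes), 2 with limma-voom (1190) and 10 with the replicate block, which called 7.95% of all genes lower. Near-identical copies make single counts in these families uncertain. Retroelements themselves have no rows in the count files. In bulk RNA, fewer cells in this state and less RNA per cell cannot be told apart.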

How the data were processed

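Total RNA from 3 WT and 3 *Patz1* KO ESC libraries was, per the labels, depleted of ribosomal RNA with Ribo-Zero Gold and made into stranded TruSeq libraries, whereas the methods of the study name KAPA kits. The authors deposited raw read counts per gene symbol, 1 file per library, without normalization. The submitters' processing notes name TopHat2 2.1.1, Bowtie2 2.3.1.0, featureCounts 1.6.2 and DESeq2 with mm10. The annotation, the strand setting and the handling of duplicates were not given in the sources used here. Gene positions and exon lengths came from GENCODE M21 (GRCm38), with 23072 of 23420 symbols matched, 1295 of them through another symbol.

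All 15309 genes with an adjusted p-value came from 1 fit with DESeq2 (1.42.0, Wald test, two-sided, median-of-ratios size factors, genotype alone, independent filtering at 0.1, Benjamini-Hochberg). Intervals are Wald intervals at 95%. Alternatives were edgeR (4.0.16, quasi-likelihood), limma-voom (limma 3.58.1), TMM size factors, size factors without chromosomes 11, X and Y, a filter of at least 10 counts in 3 libraries, other independent filtering, the replicate block and leaving out libraries. The code was tested on simulated data.

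The replicate numbers in the titles were taken as pairs, which is an assumption. Over 11524 genes the deviation from the genotype mean correlated between same-numbered libraries (0.469, 0.619 and 0.684). Libraries of unlike number were not compared, and replicate 3 is the shallow library in both genotypes. These values therefore cannot show that replicates 1 and 2 pair by number. Counts of all 15 library pairs differed beyond sampling noise, with a chi-square of at least 8.8 per degree of freedom. The members and lists were chosen with earlier results of these data known. *Duxf3* was not matched, and *Gm4340* had no counts. The genes named were all 9 members, *Patz1*, *Pou5f1*, up to 5 genes of each list with the smallest adjusted p under the threshold or else the 2 highest per kb, and the 3 genes most like the member with the smallest p. Floors and intervals cover counting error and spread between libraries only.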

Additional observations from a re-analysis of the deposited data

How the results depend on the processing

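Under 15 alternatives, the 9 members gave 135 values, of which 119 kept their direction and side of the threshold. The 1 that crossed it was *E2f6* with the replicate block (0.30, adjusted p 0.0487), where 1 of the 9 passed and 2131 genes did overall. The block changed no other call among the members or *Patz1*, and added *Pou5f1*, *Zfp42* and *Nes* among the markers. *E2f6* ranged from 0.27 to 0.33 and in adjusted p from 0.0487 to 0.513. Changes of sign, 15 in all, were at most 0.05 in size. *Ehmt1* (-8.54e-05) became 0.0029 with TMM size factors, 2.2e-05 with the block and 0.0056 without both replicate 3 libraries. Without 1 library at a time, *Trim28* ranged from -0.11 to 0.05, *Max* from -0.02 to 0.09, *Mga* from -0.15 to 0.01, *Setdb1* from -0.18 to -0.05 (lowest in size without WT replicate 1), *L3mbtl2* from -0.18 to -0.02 (likewise), *Pcgf6* from 0.0029 (without WT replicate 3) to 0.09, *Ehmt1* from -0.02 to 0.02, and the genes under the threshold from 583 to 1341 (583 and 590 with KO replicate 1 or 2 left out, 605 and 664 with WT replicate 1 or 2 left out). *Patz1* stayed under the threshold, from -1.16 to -1.10.

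With the replicate block, calls were 1 of the further PRC1.6 subunits, 4 of the H3K9 partners, 2 of the KRAB zinc finger proteins, 3 of the E2F and MAX list and 10 of the 2-cell-like genes. edgeR and limma-voom each gave 1 H3K9 partner and 0 demethylases, and 3 and 2 of the 2-cell-like genes. Without both replicate 3 libraries, 1 further PRC1.6 subunit and 1 gene of the E2F and MAX list passed, where 1332 of all genes did. Without 1 library, the counts ranged from 0 to 1 for PRC1.6 subunits, 1 to 2 for H3K9 partners, 0 to 1 for KRAB zinc finger proteins, 0 to 1 for demethylases, 0 to 2 for the E2F and MAX list, 9 to 12 for germline genes and 0 to 10 for 2-cell-like genes. The cause of these moves was not tested.

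With the longest transcript as length, WT levels per kb were 11677 (*Trim28*), 965 (*L3mbtl2*), 924 (*Setdb1*), 834 (*Max*), 752 (*Ehmt2*), 552 (*Pcgf6*), 301 (*Ehmt1*) and 174 (*E2f6*), since that length is shorter than the union of exons. The log2 difference of *Ehmt1* over *Ehmt2* was 0.22 without both replicate 3 libraries, an alternative for ratios chosen after seeing the data. Without 1 library at a time, also chosen then, the differences ranged from -0.24 to 0.04 for *Mga* over *Max*, -0.01 to 0.24 for *Pcgf6* over *Mga*, -0.22 to -0.02 for *Setdb1* over *Trim28*, -0.16 to 0.00 for *L3mbtl2* over *Mga*, 0.26 to 0.46 for *E2f6* over *Mga* and 0.11 to 0.18 for *Ehmt1* over *Ehmt2*.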
